A study of Mus musculus with 6 samples.

Results

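The genes described here are 10 transcripts that mark astrocytes in the mouse brain: Gfap, Aqp4, Aldh1l1, Slc1a2, Gja1, Gjb6, S100b, Sox9, Aldoc and Apoe. They were selected by gene name, with no threshold on their counts, and all 10 were found among the 55367 rows of the count table. All 10 also had enough counts to be among the 16976 genes tested. Relative to WT, 5 of them were lower in Fmr1-KO cultures (S100b, Aqp4, Gfap, Slc1a2 and Gjb6), 4 were higher (Gja1, Sox9, Apoe and Aldoc), and Aldh1l1 did not pass the test. Of all tested genes, 21.9% were called lower and 20.7% higher. Among the well-counted genes of the 10, the largest falls were those of S100b, to 52.3% of the WT mean, and of Aqp4, to 60.8%. The largest rise was that of Gja1, to 123%.

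RNA-seq was performed on cells from the cerebral cortex of postnatal day 1 (P1) C57BL/6J pups after 2 days in culture, with 3 libraries from WT mice and 3 from Fmr1-KO mice. Fmr1-KO mice lack FMRP, the RNA-binding protein absent in fragile X syndrome, and no other allele or agent was named for either group. The study asked whether loss of FMRP changes the levels of mRNAs degraded by nonsense-mediated decay. According to its methods, the dissociated cells of both genotypes were depleted of astrocytes with beads against the ACSA-2 antigen, and of myelin with a second set of beads, before plating in a neuronal medium. The labels name the cells cortical neurons. Of 15 neuronal markers, 0 were at 0 in all libraries, but the same held for the markers of every other cell type listed. Detection alone thus does not identify the cells, and transcripts of glia were abundant too. Library totals ran from 30348556 to 35126207 counts, a 1.16-fold range. The labels do not tie the libraries to separate cultures, so P values measure the spread between libraries, which may be technical, although the study states that its triplicates were derived independently.

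Astrocytes tile the brain and reach both synapses and blood vessels. They clear glutamate from the synaptic cleft, take up potassium and water at endfeet on vessels, share ions and metabolites through gap junctions and supply neurons with lipid. In rodent cortex they arise from radial glia around birth, as Sox9, nuclear factor I proteins and cytokine signalling through STAT proteins switch on genes such as Gfap. Several of the genes that mark them are not theirs alone. Sox9, Aldoc and Gfap can be found in neural stem cells, S100b in cells of the oligodendrocyte lineage, Apoe in microglia, and Aqp4 and S100b in ependyma.

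The promoters of S100b and Gja1 are shown because these were the well-counted genes with the largest fall and the largest rise for which a sequence could be printed. Each is the 120 bases just before the RefSeq start on the plus strand of GRCm38.p6, at chr10:76253716-76253835 for S100b and chr10:56377180-56377299 for Gja1. Capitals mark TTGGC, the core of the nuclear factor I site, read on both strands.
S100b: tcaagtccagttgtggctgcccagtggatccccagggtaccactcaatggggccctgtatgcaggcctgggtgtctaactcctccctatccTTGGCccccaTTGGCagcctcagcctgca
Gja1: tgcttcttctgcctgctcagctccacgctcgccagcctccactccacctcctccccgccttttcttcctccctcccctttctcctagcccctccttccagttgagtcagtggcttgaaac
The S100b stretch held 2 such cores and that of Gja1 held 0. In the 250 bases before the start, TTGGC was found in 4 of the 8 genes with a RefSeq promoter (Slc1a2, S100b, Aldoc and Apoe), of which 2 were lower and 2 higher in Fmr1-KO, and in 45.3% of all 27025 genes with such a window. The STAT motif TTCNNNGAA was found in 1 of the 8, Aldoc, and in 8.13% of all genes. Aqp4 and Sox9 were not among the promoters.

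The targeted gene was examined first. Fmr1 fell from 113 ± 4.50 CPM (counts scaled by TMM to a common library size; mean ± SD, n = 3) in WT to 57.4 ± 3.67 (n = 3) in Fmr1-KO libraries, and the genotypes did not overlap. Atp1b2, which encodes the ACSA-2 antigen, stood at 658 ± 16.8 CPM in WT and 618 ± 14.1 in Fmr1-KO (SD, n = 3 each). The difference was -0.09 (SE 0.03) on the log2 scale. Its adjusted P, from edgeR's quasi-likelihood test and corrected by Benjamini-Hochberg over all tested genes like every adjusted P given here, was 0.0183. That call was lost with library totals alone as the scaling (adjusted P of 0.0968), without WT replicate 1 (0.118) and without Fmr1-KO replicate 1 (0.0908).

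When levels were compared per kilobase of exon (RPKM), the 10 genes spanned a wide range. Gfap was highest in WT at 628 ± 15.9 RPKM, the 18th highest value of 16734 tested genes with a known exon length, by the mean over all libraries. Apoe followed at 355 ± 22.6 RPKM, then Aldoc at 96.3 ± 0.219, Aqp4 at 84.1 ± 1.44 and Aldh1l1 at 47.0 ± 1.54. The libraries of these 5 genes did not overlap between neighbours in WT. Slc1a2 at 27.2 RPKM, Gja1 at 24.5, Sox9 at 24.3 and S100b at 23.4 lay close together. Among them only Slc1a2 stood clear, since the WT libraries of the other 3 overlapped. Gjb6 was by far the lowest at 0.270 RPKM. In Fmr1-KO the first 5 places and the last 2 were held by the same genes. There, however, the libraries of Aqp4 (between 46.4 and 57.4 RPKM) and Aldh1l1 (between 47.6 and 49.8 RPKM) overlapped. Gja1 (30.1 RPKM) and Sox9 (28.0 RPKM), whose libraries also overlapped, stood above Slc1a2 (between 23.8 and 26.1 RPKM), and S100b was at 12.2 RPKM.

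**Figure D1:**
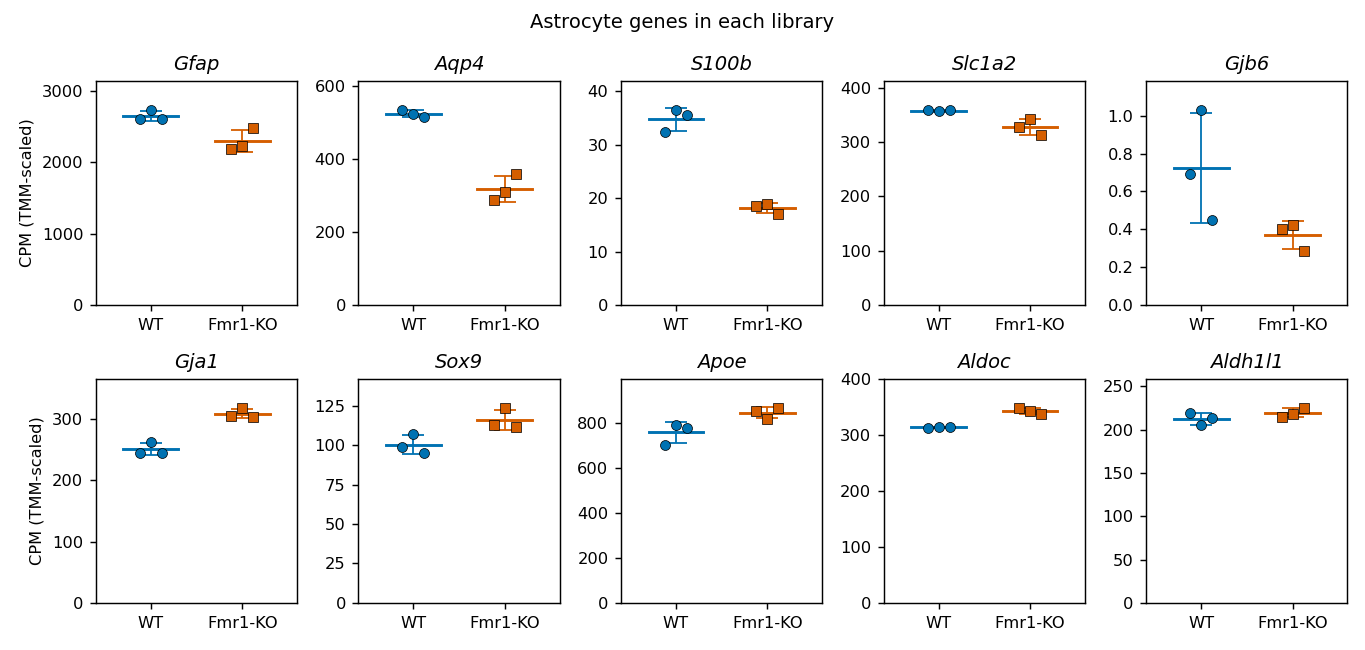
Level in CPM, TMM-scaled, of each of the 10 astrocyte genes in each library (points), with the mean (line) and SD (bars) of the 3 WT and 3 Fmr1-KO libraries. Fmr1-KO points lie below all WT points for 5 genes and above them for 4, and only those of Aldh1l1 overlap.

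Together the 10 genes took 0.506, 0.527 and 0.512% of the counts in WT replicates 1, 2 and 3, and 0.470, 0.476 and 0.505% in Fmr1-KO replicates 1, 2 and 3. Gfap alone supplied between 50.5 and 51.2% of these counts in WT libraries and between 46.9 and 49.4% in Fmr1-KO libraries, so the sum mainly follows that gene. The 5 genes called lower compare with 21.9% of all tested genes called lower, and the 4 called higher with 20.7% called higher. In the same 9 genes the genotypes did not overlap in CPM. Over all tested genes, 26.3% had every Fmr1-KO library below every WT library and 25.4% had every one above. The share of genes called depends on how well the genes compared are counted. Of 12142 genes with mean counts of at least 10 and a mean CPM of at least 5, 3158 were called lower and 3083 higher. The median log2 fold-change of the 10 genes was -0.04, beside 0.006 for all tested genes. In bulk RNA, fewer cells of a type and less RNA per cell cannot be told apart, and this holds for each difference below.

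Gfap encodes the intermediate filament protein of astrocytes and lies on the minus strand at chr11:102887336-102900912. It had 90693, 90134 and 87136 counts in WT replicates 1 to 3 and 71060, 68217 and 86229 counts in Fmr1-KO replicates 1 to 3. In scaled units these were 2609, 2726 and 2611 CPM in WT and 2185, 2228 and 2478 CPM in Fmr1-KO. Fmr1-KO replicate 3 stood nearest to the WT libraries and still lay below the lowest of them. The mean fell from 2649 ± 67.0 to 2297 ± 158 CPM, a log2 fold-change of -0.21 (SE 0.04) with an adjusted P of 0.000122.

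The related filament genes did not share one direction. Vim, the filament gene of radial glia and immature astrocytes, rose from 1203 ± 3.66 to 1402 ± 34.1 CPM, and Nes, a filament gene of neural stem cells, rose from 245 to 298 CPM. Synm, whose product assembles with other filament proteins, had a log2 fold-change of -0.93, from 15.7 to 8.20 CPM. Thus 1 of the 3 other filament genes was lower and 2 were higher, with a median log2 fold-change of 0.22. The number of Gfap counts per Vim count, which does not depend on scaling, was 2.17, 2.27 and 2.16 in WT and 1.53, 1.57 and 1.82 in Fmr1-KO, with no overlap.

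Aqp4, the water channel of astrocyte endfeet, lies on the minus strand at chr18:15389496-15410982. Its counts were 18535, 17295 and 17201 in WT and 9396, 9474 and 12452 in Fmr1-KO, and its levels 533, 523 and 515 CPM in WT and 289, 309 and 358 CPM in Fmr1-KO. The WT libraries were close to each other, and the Fmr1-KO libraries were all well below them, with replicate 3 again the nearest. The mean fell from 524 ± 8.95 to 319 ± 35.4 CPM, a log2 fold-change of -0.72 (SE 0.05) with an adjusted P of 1.83e-10.

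Of 10 other genes listed for water and potassium handling at endfeet, 0 were called lower and 4 higher, with a median log2 fold-change of 0.06. Among them Utrn, which encodes a cytoskeletal protein of the dystrophin family, rose by 0.31 on the log2 scale. Without Fmr1-KO replicate 2, 1 of the 10 was called lower. Kcnj10, the potassium channel that sits beside Aqp4, stood at 356 ± 5.58 CPM in WT and 340 ± 10.1 CPM in Fmr1-KO, with an adjusted P of 0.0849.

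Slc1a2 encodes the main glutamate transporter of mature astrocytes, on the plus strand at chr2:102658659-102790784. It had 12459, 11790 and 11958 counts in WT and 10661, 10505 and 10870 in Fmr1-KO. The WT libraries lay between 357 and 358 CPM and the Fmr1-KO libraries at 328, 343 and 312 CPM. The mean fell to 91.6% of WT, a log2 fold-change of -0.13 (SE 0.03) with an adjusted P of 0.00332. Slc1a3, the glutamate transporter that radial glia and immature astrocytes also use, was at 804 ± 22.6 CPM in WT and 820 ± 18.5 in Fmr1-KO, with a log2 fold-change of 0.03 (SE 0.03) and an adjusted P of 0.473. Slc1a1, the transporter of neurons, fell from 179 ± 6.31 to 107 ± 4.11 CPM, a log2 fold-change of -0.75.

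Of the 12 other genes of glutamate uptake and recycling, 6 were lower and 2 higher, with a median log2 fold-change of -0.11. Grm5, a metabotropic glutamate receptor of neurons and young astrocytes, fell by 0.91 on the log2 scale. The 2 that rose were the glutamine transporters Slc38a3 (0.26), a glial gene, and Slc38a1 (0.13), a neuronal one. Glul, which encodes the glutamine synthetase of astrocytes, had means of 569 and 524 CPM with overlapping libraries. It was called lower (log2 fold-change -0.12, adjusted P of 0.0135), but not without WT replicate 3, without Fmr1-KO replicate 1 or with library totals alone.

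Gja1 and Gjb6 encode the main connexins of astrocyte gap junctions. Gja1 was higher in Fmr1-KO, and Gjb6 was called lower from few counts. Gja1, on the plus strand at chr10:56377330-56402513, had 8517, 8698 and 8187 counts in WT and 9936, 9738 and 10553 in Fmr1-KO. Its level rose from 251 ± 10.3 to 309 ± 7.97 CPM, a log2 fold-change of 0.30 (SE 0.03) with an adjusted P of 2.18e-07. Gjb6, on the minus strand at chr14:57123303-57133611, was barely detected. It had 24, 34 and 15 counts in WT and 13, 13 and 10 in Fmr1-KO, or 0.723 ± 0.291 and 0.371 ± 0.0731 CPM. The lowest WT library stood just above the highest Fmr1-KO library, at 0.449 against 0.425 CPM. The difference was -0.96 (SE 0.33) on the log2 scale with an adjusted P of 0.0229, and the call was lost without WT replicate 2 (-0.63, adjusted P of 0.167), without Fmr1-KO replicate 3 (-0.80, 0.0979) and with DESeq2 (adjusted P of 0.105).

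Of the 8 other gap junction and pannexin genes, 4 were lower and 1 higher, with a median log2 fold-change of -0.12. Gjc3, which encodes a connexin of oligodendrocytes, had a log2 fold-change of -1.20, and Panx2, a pannexin of neurons, one of -0.41. The 1 that was higher was Tjp1 (0.11), a scaffold of junctions, and that call was lost without WT replicate 3 and without Fmr1-KO replicate 2. Gjb2, a connexin of astrocytes and meninges, stood at 1.28 and 1.34 CPM with an adjusted P of 0.842.

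S100b encodes a small calcium-binding protein and lies on the plus strand at chr10:76253853-76261159. Its counts were 1123, 1204 and 1184 in WT and 601, 578 and 596 in Fmr1-KO. Both sets of libraries were tight and far apart. The level fell from 34.7 ± 2.15 to 18.2 ± 0.918 CPM, a log2 fold-change of -0.94 (SE 0.06) with an adjusted P of 4.76e-11. Of the 7 other S100 genes, 1 was lower and 2 were higher, with a median log2 fold-change of -0.06. These were S100a13 (-0.43), S100a6 (0.21) and S100a11 (0.34).

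As S100b is also a gene of oligodendrocyte precursors, the oligodendrocyte lineage is given beside it. All 15 of its markers were lower in Fmr1-KO, with a median log2 fold-change of -0.74. They ranged from Pdgfra (-0.45), the receptor of precursors, through Olig2 (-0.74), to the myelin genes Mbp (-0.92), Mog (-1.23) and Mobp (-1.67). Their summed level was between 3345 and 3566 CPM in WT libraries and between 1944 and 2091 CPM in Fmr1-KO libraries. Their part in the fall of S100b was not tested.

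**Figure D2:**
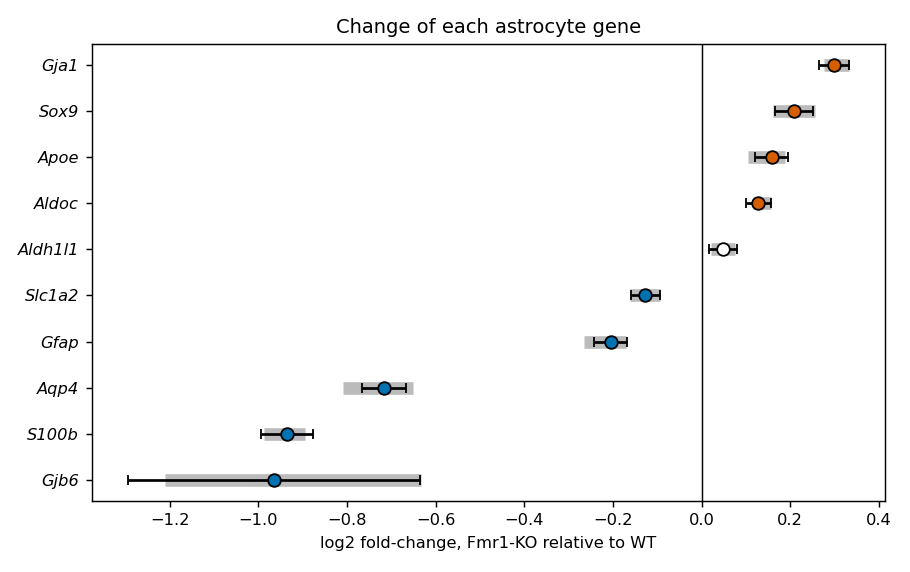
Log2 fold-change of each astrocyte gene in Fmr1-KO relative to WT (point) with its SE (thin bar); a filled point passed the test (blue lower, orange higher), a white one did not, and the grey bar spans the values under all other scalings, filters, tools and with each library left out. S100b (-0.94) and Aqp4 (-0.72) lie far below 0, Gjb6 (-0.96) has the widest bars, and each of the 9 called genes keeps its side of 0.

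Sox9 encodes a transcription factor needed for the start of gliogenesis and kept by astrocytes, on the plus strand at chr11:112782224-112787760. It had 3432, 3532 and 3179 counts in WT and 3660, 3782 and 3887 in Fmr1-KO. The libraries were at 98.7, 107 and 95.3 CPM in WT and at 113, 124 and 112 CPM in Fmr1-KO, so the genotypes came close without overlapping. Sox9 thus rose by 0.21 (SE 0.04) on the log2 scale, at an adjusted P of 0.000545.

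Genes that regulate gliogenesis moved both ways. Of 29 others tested, 11 were lower and 10 higher, with a median log2 fold-change of -0.04. With Sox9 included the median was -0.02, and it was 0.03 without WT replicate 2. Id3 (-0.91) and Id1 (-0.79), targets of BMP signalling, fell most. Zbtb20 (0.57), a transcription factor that promotes astrocyte formation, rose from 527 to 783 CPM, and Nfia, a nuclear factor I gene, had a log2 fold-change of 0.16. Lif, a cytokine that promotes Gfap expression, was also called higher (0.48) from 1.95 and 2.73 CPM, a call lost with DESeq2 and without WT replicate 2.

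Aldoc encodes an aldolase, an enzyme of glycolysis, on the plus strand at chr11:78322968-78327781. It had 10892, 10408 and 10482 counts in WT and 11327, 10499 and 11773 in Fmr1-KO. The WT level of 314 ± 0.714 CPM rose to 343 ± 4.99 CPM, a small difference with very little spread between libraries, which is 0.13 (SE 0.03) on the log2 scale with an adjusted P of 0.000851. Of the 2 other aldolases, 0 passed the test. Aldoa, the form used by most cells, was at 533 and 531 CPM (adjusted P of 0.912), and the median of the pair was 0.05.

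Apoe encodes the main lipid carrier of the brain and lies on the minus strand at chr7:19696109-19699188. Its counts were 24464, 26213 and 26071 in WT and 27750, 25099 and 30212 in Fmr1-KO. In scaled units the libraries were at 704, 793 and 781 CPM in WT and at 853, 819.9 and 868 CPM in Fmr1-KO. WT replicate 1 lay apart below the other WT libraries. The rise was 0.16 (SE 0.04) on the log2 scale with an adjusted P of 0.00161, and it was 0.11 without WT replicate 1.

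The other carriers and receptors of lipoproteins were divided. Of 12, 6 were lower and 4 higher, with a median log2 fold-change of -0.09. With Apoe included the median was -0.01, and it was 0.02 without WT replicate 2. Apod, a lipocalin of glia, fell by 1.62 on the log2 scale, and Abcg1, which exports cholesterol, fell by 0.99. Clu, an astrocyte-secreted apolipoprotein, rose from 441 ± 1.82 to 588 ± 15.8 CPM (0.42), and Nr1h2, a nuclear receptor for oxysterols, had a log2 fold-change of 0.20. Microglia can also express Apoe, and of 12 microglial markers 11 were lower and 0 higher in Fmr1-KO, with a median log2 fold-change of -0.55. The summed microglial level was between 372 and 403 CPM in WT and between 232 and 256 CPM in Fmr1-KO. The part of microglia in the level of Apoe was not tested.

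Aldh1l1 encodes a folate enzyme that is widely used to identify astrocytes of every region. It lies on the plus strand at chr6:90486427-90600203, and 2.33% of its exon length overlaps another gene of the same strand, Gm45901. It had 7599, 6772 and 7118 counts in WT and 6987, 6687 and 7828 in Fmr1-KO. The libraries overlapped, at 219, 205 and 213 CPM against 215, 218 and 225 CPM. The difference between the means was 0.05 (SE 0.03) on the log2 scale, with an adjusted P of 0.247. Of 11 other enzymes of folate metabolism, 1 was lower and 6 were higher, with a median log2 fold-change of 0.11. Mthfd2, a mitochondrial enzyme of the pathway, rose by 0.40 on the log2 scale. Aldh1l2 (-0.15), the mitochondrial relative of Aldh1l1, was the one called lower, and not without WT replicate 1 or Fmr1-KO replicate 3.

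A test for a fold-change above 1.2 kept 2 of the 10 genes, Aqp4 and S100b, both lower. Of all 16976 tested genes, it called 1340 lower and 883 higher. Gja1 then had an adjusted P of 0.261 and Gjb6 one of 0.0945.

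Ratios of counts between pairs of these genes, or between a gene and a near relative, compare transcripts inside a library and carry no scaling between libraries. The pairs were chosen after their values had been seen. There were 2.18, 1.99 and 2.10 Aqp4 counts per Gja1 count in WT and 0.946, 0.973 and 1.18 in Fmr1-KO. The mean ratio fell from 2.09 ± 0.0945 to 1.03 ± 0.128 (SD, n = 3 each). For S100b per Sox9 it fell from 0.347 ± 0.0232 to 0.157 ± 0.00643, and for Slc1a2 per Slc1a3 from 0.445 ± 0.0115 to 0.400 ± 0.0199. For Aldoc per Aldoa the mean ratio was 0.590 ± 0.0118 in WT and 0.646 ± 0.00457 in Fmr1-KO. None of these ratios, nor that of Gfap per Vim, overlapped between genotypes. For Aqp4 per Gja1, S100b per Sox9 and Gfap per Vim this was fixed beforehand. In each, the first gene was lower and the second higher in Fmr1-KO without overlap, so these ratios add no separate evidence. The 2-sided exact permutation P was 0.1 for each of the 5, which is the smallest that 3 against 3 libraries can give.

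**Figure D3:**
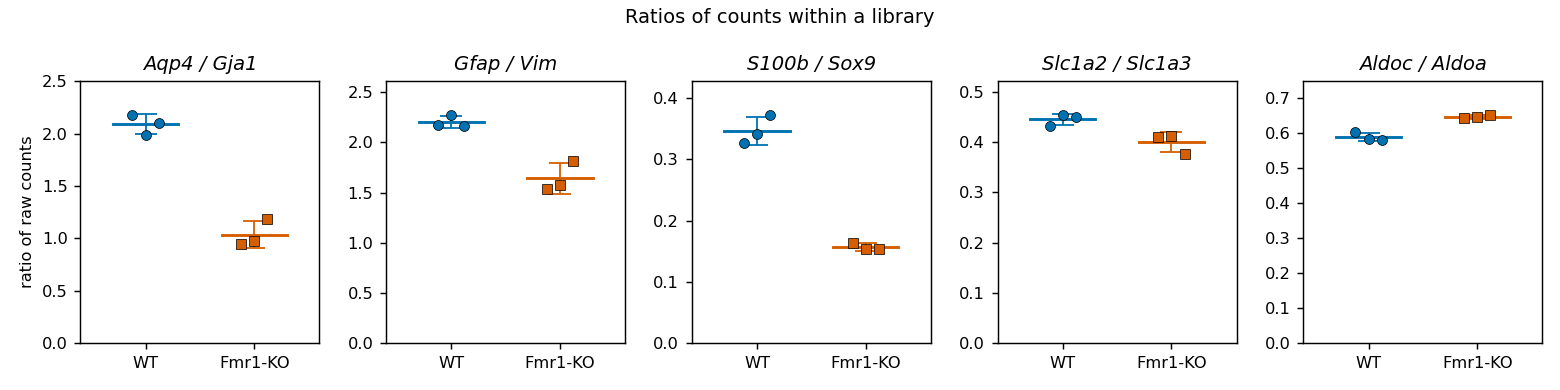
Ratio of raw counts of 2 genes within each library (points), with the mean as a line and the SD as bars, for 5 pairs in WT and Fmr1-KO cultures. In 4 pairs the 3 Fmr1-KO libraries lie below the 3 WT libraries, from 2.09 to 1.03 for the mean of Aqp4 per Gja1, and for Aldoc per Aldoa they lie above.

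A further list of 41 astrocyte genes was read beside the 10. Of these, 11 were lower and 17 higher, with a median log2 fold-change of 0.06, and their summed level was between 8584 and 8811 CPM in WT and between 8731 and 8966 CPM in Fmr1-KO. Id3 (-0.91) and Gpr37l1 (-0.82), a receptor of astrocytes and oligodendrocyte precursors, fell most. Entpd2 (0.65), an ectonucleotidase also found on neural stem cells, and Grin2c (0.62), a glutamate receptor subunit, rose most. Genes that astrocytes raise after injury were likewise mixed, with 9 of 31 lower, 7 higher and a median log2 fold-change of -0.01. With Gfap included the median was -0.02, and it was -0.11 without WT replicate 2. Among them Steap4 (-1.16) and the complement gene C3 (-1.01) fell, while Fbln5 (0.45) and Emp1 (0.29) rose. Of 8 genes for astrocyte-secreted proteins that organize synapses, 5 were higher and 1 lower, with a median log2 fold-change of 0.24. Thbs1 rose from 167 to 271 CPM (0.69) and Gpc4 from 103 to 132 CPM (0.35), whereas Sparcl1 fell from 538 to 327 CPM (-0.72).

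Markers of other cells that the cultures could hold moved too, and their part in the differences above was not tested. Of 14 markers of radial glia and neural progenitors, 8 were higher and 1 lower, with a median log2 fold-change of 0.15 and a summed level between 4873 and 4986 CPM in WT and between 5381 and 5489 CPM in Fmr1-KO. Prom1 (0.73) and Pax6 (0.52) rose most, and Hopx (-0.40) was the one lower. All 4 tested markers of intermediate progenitors were higher, with a median of 1.66, led by Eomes (2.79) and Neurog2 (2.34). The median was 0.97 with DESeq2 or without a filter, when Neurog1 was included too. All 15 proliferation genes were higher, with a median of 0.65. They included Mki67 (1.09) and Top2a (0.86), and their summed level rose from between 731 and 775 CPM in WT to between 1244 and 1283 CPM in Fmr1-KO. Of 15 neuronal markers, 13 were lower and 2 higher, with a median of -0.65. Nefl (-1.90) and Nefm (-1.35), neurofilament genes of maturing neurons, fell most, and the 2 higher were Elavl4 (0.41) and Dcx (0.08), the latter not called without replicate 1 or 3 of WT or replicate 3 of Fmr1-KO.

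Ependyma shares Aqp4, S100b and Sox9 with astrocytes. Of 7 markers of ependyma and choroid plexus, 4 were higher and 1 lower, with a median log2 fold-change of 0.31. The choroid plexus genes Folr1 (0.65) and Ttr (0.63) rose, while Kl, another, did not pass the test (-0.07, adjusted P of 0.802). Among genes of ciliated ependymal cells, Foxj1 rose from 116 to 171 CPM (0.55) and Pifo by 0.31 on the log2 scale, Tmem212 fell from 4.53 to 3.23 CPM (-0.49), and Ccdc153 did not pass the test. The C1q genes C1qb (-1.13) and C1qc (-1.08) fell most among microglial markers. Of 9 meningeal fibroblast markers, 6 were lower and 0 higher, with a median of -0.28, and Slc6a13 (-0.66) and Cemip (-0.48) led them. Of 10 tested markers of endothelial and mural cells, 4 were lower and 3 higher. Kdr (1.23) and the mural gene Pdgfrb (0.47) rose, and the mural genes Abcc9 (-1.14) and Rgs5 (-0.91) fell. The median of that list was -0.60, but -0.40 without WT replicate 1 and -0.15 without Fmr1-KO replicate 3.

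**Figure D4:**
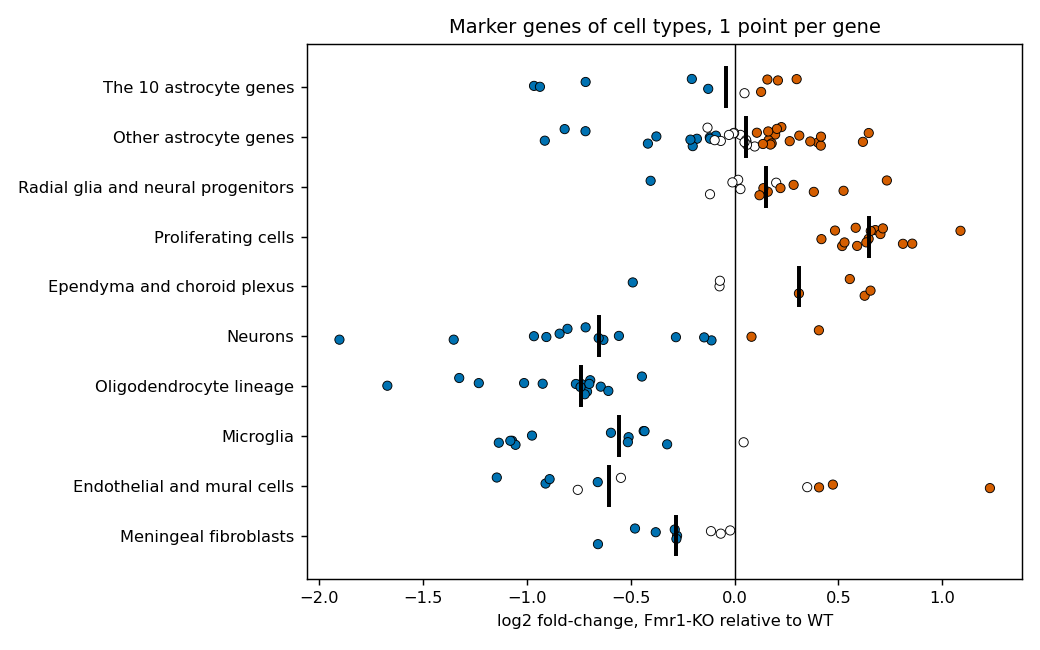
Log2 fold-change in Fmr1-KO relative to WT of each tested marker gene (points) in 10 lists of cell-type markers, with the median of each list as a black tick; blue points passed the test as lower, orange ones as higher, and white ones did not pass. The 10 astrocyte genes spread to both sides of 0 around a median of -0.04, while markers of the oligodendrocyte lineage lie below 0 (median -0.74) and proliferation genes above it (median 0.65).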

How the data were processed

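RNA-seq was measured in 3 WT and 3 Fmr1-KO libraries, grouped by their titles. The authors deposited raw counts per gene name, with no normalization. According to their methods, with versions from their processing notes, poly(A) libraries from a stranded kit were read from a single end, converted with bcl2fastq 2.19.0, trimmed with FastP, aligned to GRCm38.p6 with STAR 2.7.6a and assigned to exons with featureCounts (Subread 2.0.1) in reverse-stranded mode. The methods give other versions of bcl2fastq and Subread, and a second one of STAR. Counts by name do not separate isoforms.

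Genes were filtered with filterByExpr, scaled by TMM and tested with edgeR 4.0.16 (R 4.3.3; glmQLFit and glmQLFTest, 2-sided, genotype as the only term, Benjamini-Hochberg adjustment over all tested genes, called at an adjusted P under 0.05). The SE was the size of the log2 fold-change divided by the square root of F. RPKM divides CPM by the union of exons in GENCODE M21, which held 98.6% of tested genes and may differ from the transcripts present. Libraries of 1 genotype varied beyond Poisson sampling, with a ratio of chi-square to its degrees of freedom of 2.91 (WT) and 3.15 (Fmr1-KO). The procedure was tested on simulated data.

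The 10 genes and the 21 lists were chosen with earlier results of these data known. From each list, up to 2 lower and 2 higher called genes with the largest change and at least 1 CPM were named. Glul, Kcnj10, Nfia, Pdgfra, Olig2, Mbp, Foxj1, Pifo, Ccdc153 and Kl were named after their values had been seen. Some genes that the rule selects are not reported here. Cntf, Neurog1, Cldn5 and Tek had too few counts to be tested. Alternatives were DESeq2 1.42.0, RLE and upper-quartile scaling, unscaled library totals, tests without a filter or with a higher one (mean counts of at least 10 and a mean CPM of at least 5), a minimum fold of 1.2, a replicate block and leaving out each library.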

Additional observations from a re-analysis of the deposited data

How the results depend on the processing

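Of 139 recomputed values of the 10 astrocyte genes, 129 kept their direction and their side of the threshold, 10 kept the direction and lost the call, and 0 changed sign. When a fold-change above 1.2 was required, 2 of the 10 genes were called lower and 0 higher, beside 1340 lower and 883 higher among all 16976 tested genes. DESeq2 called 4 of the 10 lower and 4 higher, without Gjb6, and the cause was not tested. With each library left out, between 4 and 5 were called lower and 4 were called higher. Gjb6 did not pass the stricter filter, and the median log2 fold-change of the other 9 genes was then 0.0491. Of the 16976 genes, upper-quartile scaling called 3517 lower and 3743 higher, and library totals alone 3212 and 4207. DESeq2, which was run without filterByExpr on 31650 genes, called 3199 lower and 2673 higher. The median over all genes moved by at most 0.028 under any of these settings.

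With a replicate block, 5 of the 10 genes were lower and 4 higher, their median was -0.04, and 3694 of all genes were lower and 3488 higher. No call among the 10 changed. Same-numbered libraries of the 2 genotypes had correlations of -0.0289, 0.0323 and -0.0147 in their deviations. No pairing by number was seen, but correlations over all genes cannot exclude one.

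Aldoa changed sign with upper-quartile scaling (0.00563) and library totals alone (0.0228), and ran from -0.0238 to 0.0101 with each library left out. Gjb2 ran from -0.0950 to 0.283. Neither gene was called. With the stricter filter, which tests fewer genes, the median of all gap junction and pannexin genes was -0.06, that of endothelial and mural markers -0.21 and that of ependymal and choroid plexus markers 0.56. Depth limits Gjb6, which had at most 34 counts in any library. Each value rests on 3 libraries per genotype.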
